A study of Mus musculus with 6 samples.

Results

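The Hox genes of the HoxA, HoxB, HoxC and HoxD clusters were examined in 2 mouse mammary tumour cell lines, J110 and SSM3, with 3 biological replicates of each. Members were all protein-coding genes in the count table with a symbol made of Hoxa, Hoxb, Hoxc or Hoxd and a number, which gave 39 of the 52636 genes listed. HoxA held 11 of them on chromosome 6, HoxB 10 on chromosome 11, HoxC 9 on chromosome 15 and HoxD 9 on chromosome 2. J110 cells came from mammary tumours of transgenic mice in which the MMTV LTR, a viral promoter active in mammary epithelium, drives AIB1 cDNA. SSM3 cells came from mammary tumours of 129SvEv mice. No treatment is named for either line. SSM3 cells were grown with more serum and CO2 than J110 cells and with holo-transferrin and β-mercaptoethanol added, so the line and its culture conditions cannot be told apart. Each line is a single cell line, so the comparison is of these lines and not of tumour types.

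Hox genes encode homeodomain transcription factors that give cells their position along the body axis. They lie in 4 clusters, and their order along the chromosome matches the order in which they are used from head to tail, so that genes of low number are used towards the head and those of high number towards the tail. Adult tissues and tumours often keep a pattern of Hox genes from their place of origin, and Hox proteins bind DNA together with partners of the Pbx, Meis and Pknox families. Several Hox genes take part in the growth of the mammary gland. Below, genes of paralog groups 1 to 3 are called anterior, those of groups 4 to 8 central and those of groups 9 to 13 posterior.

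Reads were taken from the 3′ ends of transcripts and the deposited values were raw counts. Total counts ran from 5209740 to 5416305 in J110 libraries and from 4200785 to 4792941 in SSM3 libraries. Levels are given as CPM, the count scaled to a common library size, after TMM scaling of library sizes, with the SD over 3 libraries. Genes were not ranked by level, because a 3′ tag count also depends on how a gene's end is annotated. This limit applies where counts of several genes are set side by side below, as for Hoxb3os, within HoxB or by position. A gene counts as being at the floor in a line where none of its libraries had more than 3 counts on it, and 3 counts lay between 0.578 and 0.668 CPM. A gene with 0 counts over all 3 libraries could still have been present at up to 0.2 CPM in J110 cells and 0.211 CPM in SSM3 cells, from counting error alone. The epithelial genes Epcam, Krt8, Krt18, Krt19 and Cdh1 summed to between 2680 and 2770 CPM in J110 libraries and between 11900 and 13100 CPM in SSM3 libraries. Of these 5, Epcam (0.681 against 507 CPM), Krt19 (18.6 against 7410 CPM), Cdh1 (4.02 against 1370 CPM) and Krt8 (1270 against 2270 CPM) were lower in J110 than in SSM3 cells, and Krt18 was higher (1430 against 970 CPM). Of the other markers, the 4 endothelial genes summed to 158 to 181 CPM in J110 libraries, of which Cdh5 gave 165 CPM on average, and to at most 0.425 CPM in SSM3 libraries, with Tie1 at 0 in both. The 4 leukocyte genes summed to 29.2 to 35.0 and 14.7 to 17.0 CPM, with Ptprc at 0 in J110 cells and Cd3e at 0 in SSM3 cells. Of the other leukocyte genes, Cd68 was at 18.5 and 1.42 CPM (log2 fold change of -3.70, adjusted p = 5.19e-09) and Csf1r at 14.3 and 14.2 CPM. The 5 fibroblast genes summed to 1.54 to 1.98 and 0.398 to 1.91 CPM, with Col1a2 and Lum at 0 in both lines. The 2 erythroid genes summed to at most 0.209 and 1.34 CPM, with Hbb-bs at 0 in both. The part of these differences in the results on Hox genes was not tested, and in bulk RNA fewer cells of a type cannot be told apart from less RNA per cell. Ncoa3, the mouse gene of AIB1, was at 21.2 ± 0.166 CPM in J110 cells and 39.9 ± 2.65 CPM in SSM3 cells. The gene was thus lower in the line whose mice carried the AIB1 transgene. The 3′ end of that transgene is not given in the sources used here. If it differs from the end of Ncoa3, tags of the transgene would not be counted on Ncoa3, so this gene could not check the labels.

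Most Hox genes were silent or nearly so at this depth in both lines, and SSM3 cells had counts on a run of HoxB genes, Hoxb2, Hoxb3 and Hoxb4, that were at or near the floor in J110 cells. The counts of Hoxb2 and Hoxb3 are uncertain because an antisense gene shares their exons. No count fell on 17 of the 39 members in any of the 6 libraries, and 34 of 39 were at the floor in both lines. SSM3 libraries were above the floor for 5 members, Hoxb2, Hoxb3, Hoxb4, Hoxa3 and Hoxa5, and J110 libraries for 1, Hoxb4. All Hox counts together came to 7, 5 and 15 in J110 libraries, against 163, 138 and 190 in SSM3 libraries, with no overlap between the lines. That is 1.82 ± 1.15 CPM in J110 cells and 34.5 ± 4.54 CPM in SSM3 cells (SD, n = 3).

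**Figure D1:**
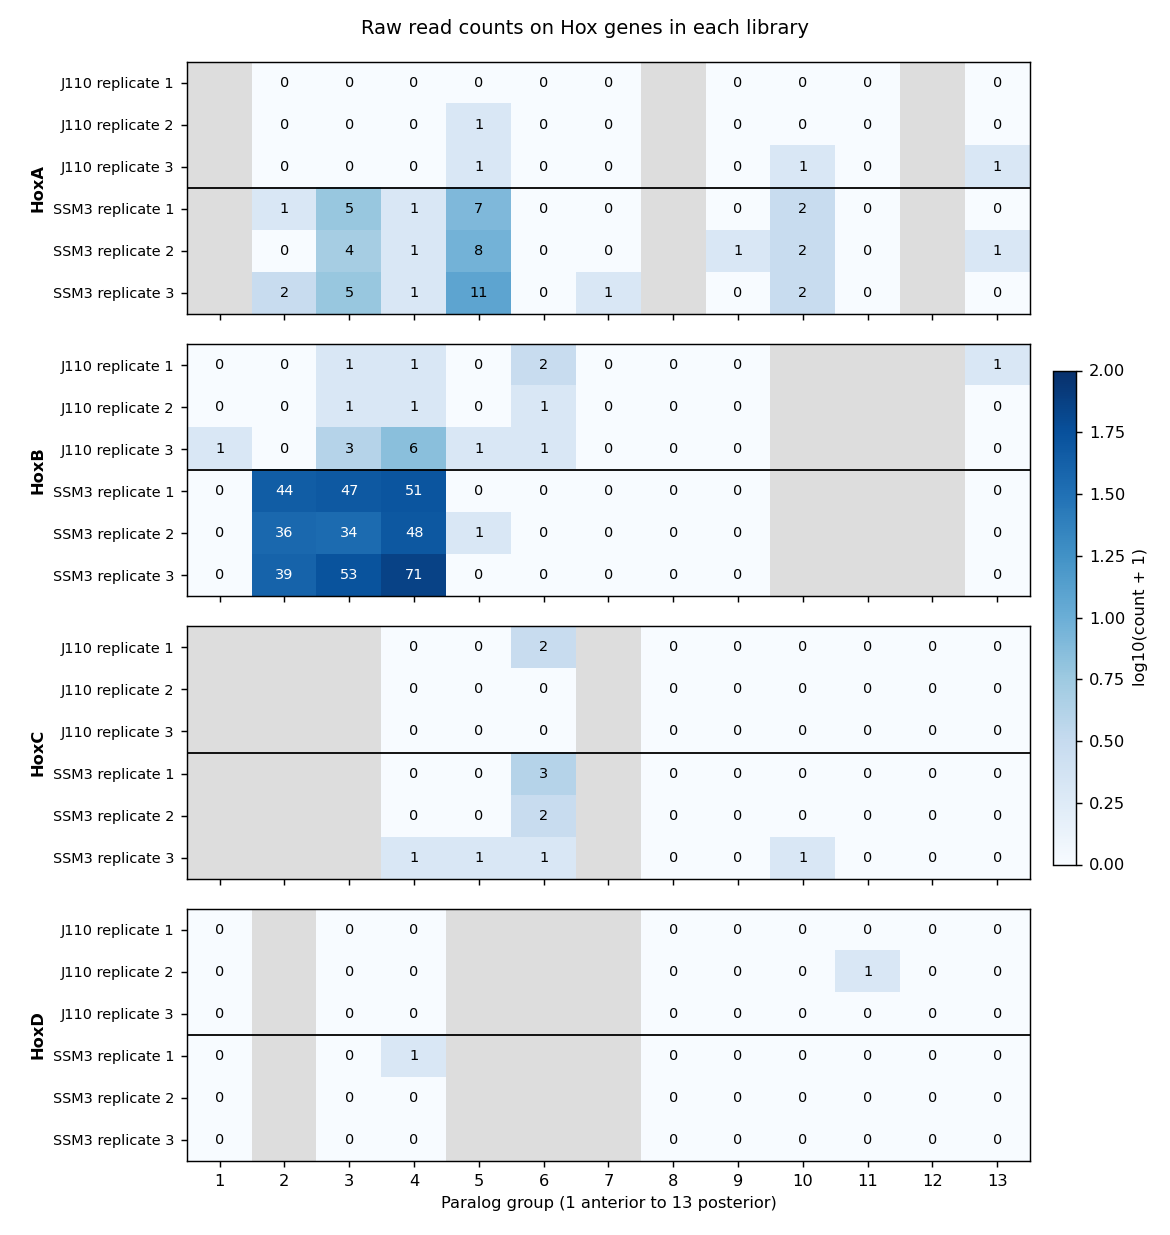
Raw counts on Hox genes, by cluster (panels), paralog group (horizontal axis) and library (rows), with colour giving log10(count + 1) and grey marking places with no gene or none shown. The counts of 34 to 71 on Hoxb2, Hoxb3 and Hoxb4 in SSM3 libraries stand against 0 to 6 in J110 libraries, and HoxC and HoxD hold at most 3 counts on any gene.

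The counts of each cluster were summed in each library and compared between the lines, but not between clusters. The HoxB sum was 142, 119 and 163 counts in SSM3 libraries and 5, 3 and 12 in J110 libraries, and the HoxA sum was 17, 17 and 23 against 0, 1 and 3. Neither cluster's libraries overlapped between the lines. The J110 sums depended on replicate 3, without which that of HoxB went from 1.35 to 0.779 CPM and that of HoxA from 0.275 to 0.0989 CPM. HoxC gave 3, 2 and 4 counts against 2, 0 and 0, or 0.668, 0.425 and 0.796 CPM against 0.386, 0 and 0. Its libraries did not overlap in CPM, but the lowest SSM3 and the highest J110 library had the same 2 counts. HoxD gave 1, 0 and 0 counts against 0, 1 and 0, and its libraries overlapped. By position, 3 of 8 anterior genes, 2 of 15 central genes and 0 of 16 posterior genes were above the floor in SSM3 libraries. The 3 anterior genes, Hoxb2, Hoxb3 and Hoxa3, have antisense genes over their last exonic bases and their counts are uncertain. Of the 23 members that share no exon, 2 were above the floor, Hoxb4 and Hoxa5, both central. No posterior gene had more than 2 counts in any library, and 10 of the 16 had none at all.

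Within HoxB, 423 of the 424 counts of SSM3 libraries fell on 3 neighbours. Hoxb4, Hoxb3 and Hoxb2 lie side by side on the plus strand of chromosome 11 and span 35.7 kb (mm10 chr11:96318267-96354012) of the 173.9 kb from Hoxb13 to Hoxb1. The next gene on the low-numbered side, Hoxb1, is 11.7 kb away from Hoxb2, and the next on the high-numbered side, Hoxb5, ends 12.1 kb before Hoxb4. Inside the run the gaps are 1.7 kb and 2.6 kb. The 3 genes together had 142, 118 and 163 counts in SSM3 libraries and 2, 2 and 9 in J110 libraries. The other 7 HoxB genes had no more than 2 counts in any library of either line, and Hoxb7, Hoxb8 and Hoxb9 had none.

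**Figure D2:**
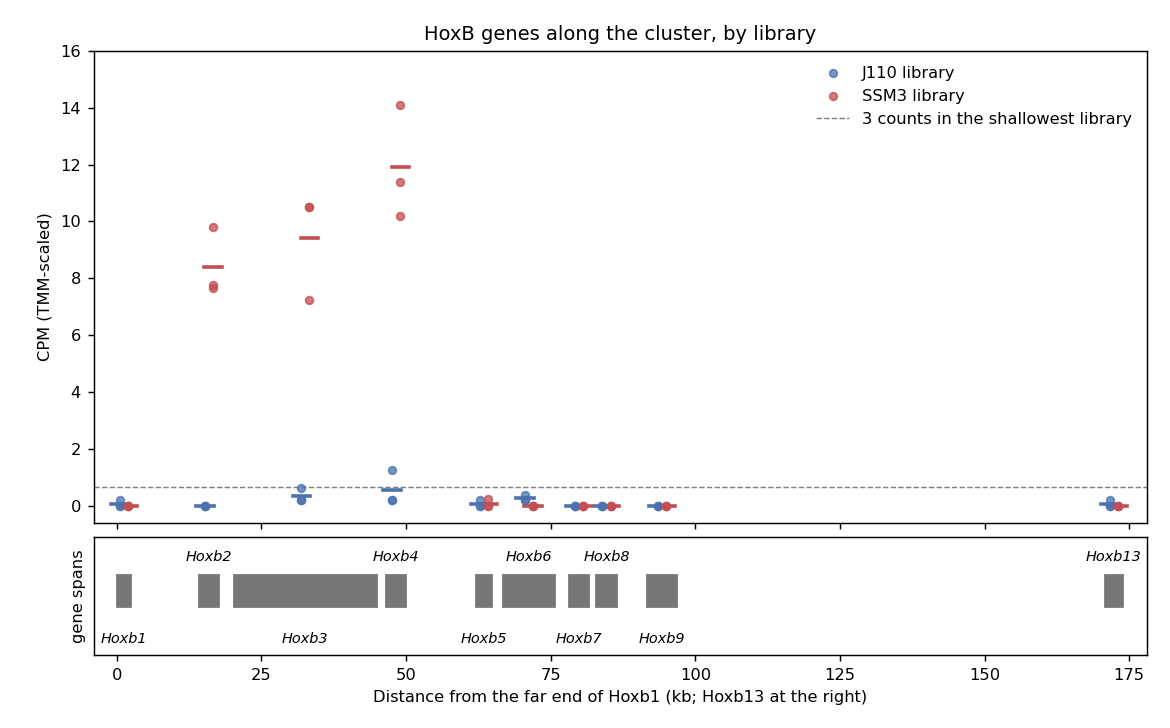
Level of each HoxB gene in every library (points, CPM) with the mean of each line (bar), placed along the cluster by distance from the far end of Hoxb1 in kb, above a map of the gene spans. The dashed line marks 3 counts in the shallowest library (0.668 CPM). SSM3 libraries rise above it at Hoxb2, Hoxb3 and Hoxb4 alone, and 1 J110 library does at Hoxb4.

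Of the 3 members tested, only Hoxb4 shares no exon with another annotated gene (ENSMUSG00000038692, chr11:96318267-96321638, plus strand). It encodes a factor known for expanding blood stem cells when overexpressed. Its counts were 51, 48 and 71 in SSM3 libraries and 1, 1 and 6 in J110 libraries, so the lowest SSM3 library was well above the highest J110 library. Mean levels were 11.9 ± 2.02 and 0.548 ± 0.610 CPM, a log2 fold change of 4.42 with a standard error of 0.41 (adjusted p = 4.96e-08, edgeR quasi-likelihood test). The size of this change depended on J110 replicate 3, without which the log2 fold change was 5.75 (adjusted p = 2.27e-07). Over all alternatives the log2 fold change lay between 4.01 and 5.86, and the adjusted p was at most 4e-06.

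The J110 counts of Hoxb4 were uneven, with 6 of the 8 in replicate 3. That library also carried low counts on genes that are specific to SSM3 cells. Of 18 genes with at least 100 CPM in every SSM3 library and none in the other J110 libraries, 12 had a count in J110 replicate 3, at 0.182% of the SSM3 level. In J110 replicates 1 and 2 this was 1 of 7 genes each, at 0.0157% and 0.0172%. The Hoxb4 level of the J110 libraries was 1.62%, 1.66% and 10.5% of the SSM3 mean, of which replicates 1 and 2 rest on 1 count each. The part of such low counts in the J110 values of Hoxb4 was not tested. SSM3 replicate 2 had counts on 16 of 16 such genes of the J110 line, at 0.453% of the J110 level. Without both libraries, 3 Hox genes passed the test, having passed the filter through the SSM3 libraries, where they were high.

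Hoxb2 and Hoxb3 were also above J110 levels, but their values rest on bases shared with an antisense gene. Hoxb2 (ENSMUSG00000075588, chr11:96350525-96354012), a gene of hindbrain segment identity, had 44, 36 and 39 counts in SSM3 libraries and 0 in every J110 library. This is 8.40 ± 1.21 CPM, at least 13.4-fold higher than 3 counts in a J110 library (adjusted p = 2.91e-08). Hoxb3 (ENSMUSG00000048763, chr11:96323326-96347930), which acts in the hindbrain and pharyngeal region, had 47, 34 and 53 counts against 1, 1 and 3. Its levels were 9.41 ± 1.90 and 0.339 ± 0.249 CPM, a log2 fold change of 4.72 with a standard error of 0.42 (adjusted p = 2.90e-08), and 5.41 without J110 replicate 3. For neither gene did the lines overlap.

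Hoxb3os runs on the opposite strand (chr11:96343072-96354691, minus strand). It covers 953 of the 3488 exonic bases of Hoxb2, with 500 of its last 500, and 2250 of the 4251 exonic bases of Hoxb3, with 493 of its last 500. Hoxb3os itself had 103, 83 and 112 counts in SSM3 libraries and 1, 2 and 2 in J110 libraries, a log2 fold change of 5.87 with a standard error of 0.33 (adjusted p = 8.49e-11). The sum of Hoxb2 and Hoxb3 was 91, 70 and 92 counts in SSM3 libraries, which is 88.3%, 84.3% and 82.1% of the Hoxb3os count. Whether reads were assigned by strand, and how a read over several genes was treated, is not given in the sources used here. The reads of these partners therefore cannot be told apart, and the counts of Hoxb2 and Hoxb3 are uncertain.

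Only these 3 of the 39 members had enough counts to be tested, and all 3 were higher in SSM3 cells. Across all 12284 genes tested, 38.6% were called higher in SSM3 cells and 77.9% were called in either direction. The 3 members passed the filter on low counts through the SSM3 libraries, where they were high, so their count is a description. A test for more than a 2-fold change also called all 3, where it called 34.8% of all genes tested. When the filter was relaxed to at least 1 count in any library, 22 members were tested and 5 were called, all higher in SSM3 cells, against 24.1% of the 22592 genes tested that way. The added genes were Hoxa3 and Hoxa5. Counting only members that share no exon with another gene left Hoxb4 as the 1 member tested and called. By the separation of libraries alone, 7 members had every SSM3 library above every J110 library and 1, Hoxb6, the reverse. Of those 8, Hoxa4, Hoxa10 and Hoxb6 had no more than 2 counts in any library. Over all 52636 genes listed, 11% had every SSM3 library above every J110 library and 11.8% the reverse, and over the 12284 genes tested these shares were 39.4% and 40.3%.

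Promoters of 3 HoxB genes are printed to show what lies before the start of a gene with counts in SSM3 cells, Hoxb4, and of 2 genes elsewhere in the cluster with 0 or 1 count in any library, Hoxb8 and Hoxb1. RefSeq entries of GRCm38.p6 were matched for 22 of the 39 members, and within HoxB for Hoxb8, Hoxb4 and Hoxb1. Each is the 250 bases before the gene's start in RefSeq, on the plus strand, at chr11:96281655-96281904 for Hoxb8, chr11:96318017-96318266 for Hoxb4 and chr11:96365508-96365757 for Hoxb1. The Hoxb1 window runs slightly into the gene as GENCODE places it, with its start at 96365752. Capitals mark TGACAG (bound by Meis and Pknox factors), TGATNNAT (bound by Pbx and Hox together) and CCAAT (bound by NF-Y), searched on both strands. None of these marks overlaps another.
Hoxb8: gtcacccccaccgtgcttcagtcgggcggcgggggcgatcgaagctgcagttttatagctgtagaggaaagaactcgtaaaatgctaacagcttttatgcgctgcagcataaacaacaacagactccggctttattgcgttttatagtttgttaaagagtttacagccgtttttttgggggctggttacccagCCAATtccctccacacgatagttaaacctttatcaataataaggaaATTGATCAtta
Hoxb4: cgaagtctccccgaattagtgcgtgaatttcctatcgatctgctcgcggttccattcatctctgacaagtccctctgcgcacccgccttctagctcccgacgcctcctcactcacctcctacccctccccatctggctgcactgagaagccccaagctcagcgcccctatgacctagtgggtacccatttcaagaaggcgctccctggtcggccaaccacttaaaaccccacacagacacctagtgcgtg
Hoxb1: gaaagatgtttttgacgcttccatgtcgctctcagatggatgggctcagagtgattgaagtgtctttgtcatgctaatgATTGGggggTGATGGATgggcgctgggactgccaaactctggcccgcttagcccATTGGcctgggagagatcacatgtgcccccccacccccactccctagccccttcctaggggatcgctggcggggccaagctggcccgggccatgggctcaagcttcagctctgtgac

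The Hoxb4 promoter held none of these motifs and neither the letters TATAAA nor CACGTG. Hoxb1 held 1 match to TGATNNAT and 2 to CCAAT, and Hoxb8 held 1 of each and 2 matches to TATAAA. Over 32851 promoters of the same length, 15.9% held TGACAG, 7.68% TGATNNAT, 33.8% CCAAT, 12.4% TATAAA and 6.02% CACGTG, so matches of this kind are common. The Hoxb4 promoter was 58.0% GC with 14 CG dinucleotides, that of Hoxb1 59.2% with 7 and that of Hoxb8 44.4% with 12, against medians of 52.4% and 6 over all promoters.

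In HoxA the members above the floor in SSM3 cells were Hoxa3 and Hoxa5. Hoxa5 (ENSMUSG00000038253, chr6:52201754-52204587, minus strand), a gene needed for lung development, had 7, 8 and 11 counts in SSM3 libraries against 0, 1 and 1 in J110 libraries. Its level was 1.82 ± 0.331 CPM in SSM3 cells and 0.135 ± 0.117 CPM in J110 cells, and it shares no exon with another gene. The lines did not overlap, but the counts were too low to pass the filter and the gene was not tested.

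Hoxa3 (ENSMUSG00000079560, chr6:52169062-52213336, minus strand), needed for thymus and parathyroid formation, had 5, 4 and 5 counts in SSM3 libraries and none in J110 libraries. That is 0.986 ± 0.132 CPM, at least 1.57-fold higher than 3 counts in a J110 library. The antisense gene Hoxaas2 had the same counts of 5, 4 and 5 and covers 500 of the last 500 exonic bases of Hoxa3, so the 2 cannot be told apart. Gm29430, which overlaps other exons of Hoxa3 on the opposite strand, had 1, 1 and 2 counts in SSM3 libraries, and Gm28308, Hoxaas3 and 5730596B20Rik, which also share exons with Hoxa3, had none. Further along, Hotairm1, an antisense RNA near the low-numbered end of the cluster, had 14, 13 and 6 counts in SSM3 libraries and 0, 1 and 0 in J110 libraries. It was not tested and was named after its values were seen.

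The remaining members stayed at the floor in both lines. In HoxA, Hoxa4 had 1 count in each SSM3 library and Hoxa10, a gene of uterine development, had 2 in each, against a single J110 count for Hoxa10 in replicate 3. Hoxa2 had 1, 0 and 2 counts in SSM3 libraries and none in J110 libraries. Hoxa7, Hoxa9 and Hoxa13 had at most 1 count in any library, and Hoxa6 and Hoxa11 none. In HoxB, Hoxb6 was the only member whose counts were all in J110 libraries and at least 1 in each, at 2, 1 and 1. Hoxb13, a gene of prostate and tail development, had 1 J110 count, as did Hoxb1, and Hoxb5 had 1 count in each line. In HoxC, Hoxc6 had 2, 0 and 0 counts in J110 libraries and 3, 2 and 1 in SSM3 libraries, so the lines overlapped, and Hoxc4, Hoxc5 and Hoxc10 had a single SSM3 count each. In HoxD, Hoxd4 had 1 SSM3 count and Hoxd11 1 J110 count, and the other 7 members had none.

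Shared exons were common in the clusters. Of the 39 members, 16 share exonic bases with another annotated gene, 10 of them with a gene on the opposite strand and 4 with another member. Those 4 are Hoxd3 with Hoxd4, over 388 bases, and Hoxc5 with Hoxc10, over 166 bases. For 7 members the overlap reaches the last 500 bases, where 3′ tags fall. Apart from the 3′ ends of Hoxb2, Hoxb3 and Hoxa3, these overlaps touched members with at most 2 counts in any library.

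Of 78 other annotated genes within 100 kb of a cluster's outermost members, 61 had no count in any library, 17 had a count and 3 were tested. Of the 78, 9 had every SSM3 library above every J110 library, with Hoxb3os, Hoxaas2 and Hotairm1 among them, and 2, Lnpk and Skap1, the reverse. Over all 52636 genes listed these shares were 11% and 11.8%, so the 9 are near the background and no result about the neighbours. The 9 are also not independent, since Gm27868 lies inside Hotairm1 and Hoxaas2 cannot be told apart from Hoxa3. Skap1, beyond the Hoxb1 end of HoxB, had 5, 10 and 9 counts in J110 libraries and none in SSM3 libraries. The antisense RNAs Hotair and Hottip had none, and neither had the 7 miRNA genes, among them Mir10a between Hoxb5 and Hoxb4, a class that poly-A primed libraries sample poorly. Lnpk, beyond the Hoxd13 end of HoxD, was at 31.6 ± 2.99 CPM in J110 cells and 19.0 ± 2.05 CPM in SSM3 cells (log2 fold change of -0.73 with a standard error of 0.14, adjusted p = 1.45e-04), the opposite direction to the HoxB run. Mtx2, beyond the Hoxd1 end, was at 55.5 ± 1.80 and 51.6 ± 2.91 CPM and did not pass the test (log2 fold change of -0.10 with a standard error of 0.09, adjusted p = 0.309). The third gene tested was Hoxb3os.

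Genes of the Pbx, Meis and Pknox families, whose proteins bind DNA with Hox proteins, were compared next. Of 8 TALE homeodomain genes (Pbx2 to Pbx4, Meis1 to Meis3, Pknox1 and Pknox2), 5 were tested, 4 were higher in SSM3 cells and 1 lower. All 5 tested (100%) were called, where 77.9% of all genes tested were, 38.6% higher and 39.2% lower, so the count is no result about the list. Meis1 passed the filter through the SSM3 libraries alone. The median log2 fold change of the 5 was 0.73, against -0.014 for all genes tested. Scaling by library size alone moved the median of all genes to 0.16 and gave 4 higher and 0 lower among these cofactors.

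Of these 8 genes Meis1 changed the most. It encodes a partner that binds DNA with Pbx and Hox proteins and is known as a leukaemia cofactor of Hox genes. It had 240, 284 and 318 counts in SSM3 libraries and 0 in each J110 library. At 59.0 ± 5.04 CPM it was at least 94.3-fold higher than 3 counts in a J110 library (adjusted p = 1.40e-12). No J110 library overlapped the SSM3 libraries, so the line with the HoxB counts was also the line with Meis1 counts.

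**Figure D3:**
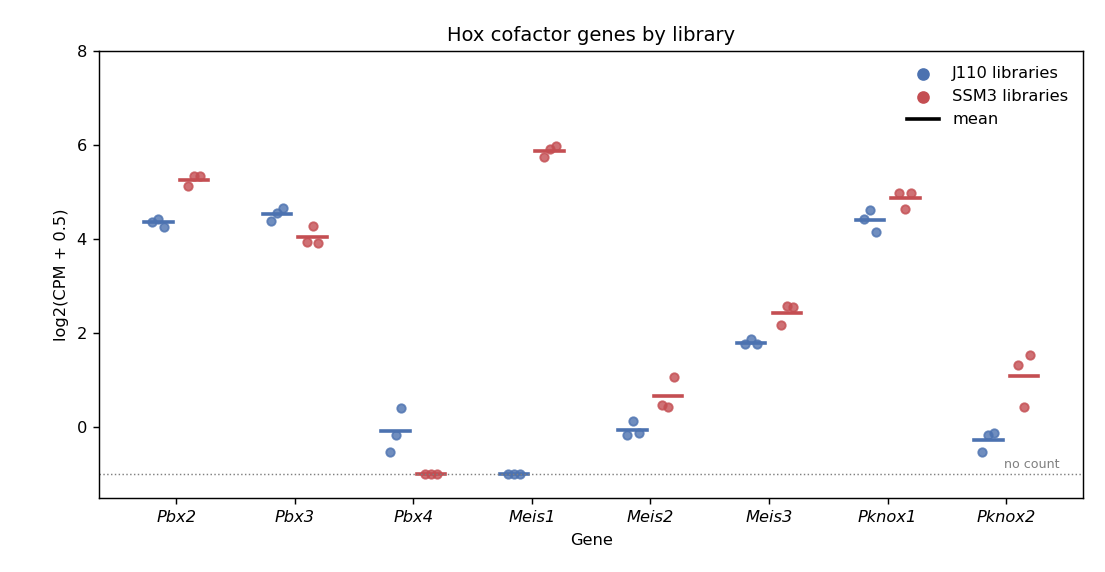
Levels of 8 Hox cofactor genes in every library (points, log2(CPM + 0.5)) with the mean of each line (bar). The dotted line marks no count. Meis1 lies on it in all 3 J110 libraries and stands at 59.0 CPM in SSM3 cells.

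The other 4 of these cofactors tested moved by less. Pbx2 was at 20.1 ± 1.20 CPM in J110 cells and 38.3 ± 3.08 CPM in SSM3 cells (log2 fold change of 0.93 with a standard error of 0.13, adjusted p = 3.95e-06). Pbx3 fell from 22.8 ± 2.22 to 16.3 ± 2.48 CPM (log2 fold change of -0.49 with a standard error of 0.15, adjusted p = 8.85e-03), a call lost with library size alone (-0.31, adjusted p = 0.0776). Pknox1 rose from 20.9 ± 3.51 to 28.9 ± 3.92 CPM (0.47 with a standard error of 0.15, adjusted p = 0.0109), a call lost without J110 replicate 3 (0.34, adjusted p = 0.0709). Meis3 stood at 2.99 ± 0.150 and 4.97 ± 0.834 CPM (0.73 with a standard error of 0.28, adjusted p = 0.0236), and its call was lost with DESeq2 (adjusted p = 0.113) and when any of J110 replicates 1 and 3 or SSM3 replicates 2 and 3 was left out (adjusted p from 0.0560 to 0.0796). Apart from a test for more than a 2-fold change, adjusted p over the alternatives reached at most 0.0776 for Pbx3, 0.0709 for Pknox1 and 0.119 for Meis3. Pbx4 had 1, 2 and 4 counts in J110 libraries and 0 in SSM3 libraries, Meis2 had 2, 3 and 2 against 4, 4 and 8, and Pknox2 had 1, 2 and 2 against 9, 4 and 12. None of these 3 was tested.

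Polycomb proteins keep Hox clusters silent by marking and compacting their chromatin, and trithorax proteins keep them active. Of 31 genes of both groups, with the Cdx genes and other Hox regulators, 28 were tested, 13 were higher in SSM3 cells and 9 lower. With library size alone these numbers were 18 and 6. The share called was 78.6%, near the 77.9% of all genes tested, so the list as a whole did not stand apart.

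Among 16 Polycomb genes, 7 were higher and 6 lower in SSM3 cells, with a median log2 fold change of 0.18. The share called was 81.2%, near the background of 77.9%. Jarid2, which brings Polycomb repressive complex 2 to its targets, had the largest increase, with 12.1, 9.10 and 11.1 CPM in J110 libraries and 65.7, 71.4 and 62.1 CPM in SSM3 libraries (log2 fold change of 2.62 with a standard error of 0.13, adjusted p = 1.63e-11). Bmi1, a subunit of Polycomb repressive complex 1, rose from 57.7 ± 2.88 to 275 ± 24.3 CPM (2.25 with a standard error of 0.09). Phc1, Cbx2, Cbx8, Ezh1 and Ring1 rose as well, by 1.93, 1.60, 1.22, 1.19 and 0.89 on the log2 scale. Of the core subunits of Polycomb repressive complex 2, the methyltransferase Ezh2 fell from 145 ± 16.5 to 91.6 ± 5.94 CPM (-0.66 with a standard error of 0.09), Eed fell by 0.69 and Suz12 by 0.36 on the log2 scale. The Suz12 call was lost with library size alone (adjusted p = 0.0904). Phc2 had the largest fall, from 134 ± 10.2 to 55.1 ± 9.76 CPM (-1.28 with a standard error of 0.11, adjusted p = 2.09e-08), and Cbx6 and Cbx7 fell by 0.60 and 0.61. The Cbx7 call, at an adjusted p of 0.0273, was lost in most alternatives. Rnf2, Pcgf2 and Phc3 did not pass the test.

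Of 15 trithorax genes and other regulators, 12 were tested, 6 were higher and 3 lower, a share called of 75%, also near the background. Kmt2b, a histone methyltransferase, had the largest increase, from 8.98 ± 0.701 to 24.4 ± 4.76 CPM (1.44 with a standard error of 0.18, adjusted p = 1.42e-06). Men1, Ash2l, Kdm6b, Wdr5 and Rbbp5 rose by 1.22, 1.08, 0.78, 0.70 and 0.36 on the log2 scale, of which Rbbp5 had overlapping libraries and an adjusted p of 0.0416. Its call was lost with DESeq2 (adjusted p = 0.0867), with a filter of 10 counts in every library (adjusted p = 0.0534) and without J110 replicate 2 (adjusted p = 0.0968), J110 replicate 3 (adjusted p = 0.18) or SSM3 replicate 1 (adjusted p = 0.19). Psip1, a chromatin tether of the methyltransferase complex, had the largest fall, from 157 ± 20.8 to 50.7 ± 2.73 CPM (-1.63 with a standard error of 0.10, adjusted p = 3.49e-10). Kmt2a, the methyltransferase best known for keeping Hox genes on, fell from 69.8 ± 4.09 to 40.6 ± 1.40 CPM (-0.78 with a standard error of 0.09, adjusted p = 9.68e-07), and Dpy30 fell by 0.38, a call lost with library size alone (-0.21, adjusted p = 0.0586). Kdm6a, Dot1l and Ctcf did not pass the test. Cdx1, Cdx2 and Cdx4, which switch on central Hox genes in the embryo, were not tested, with 4, 7 and 5 counts on Cdx2 in SSM3 libraries against 0, 1 and 0, and at most 1 count on Cdx1 and none on Cdx4.

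**Figure D4:**
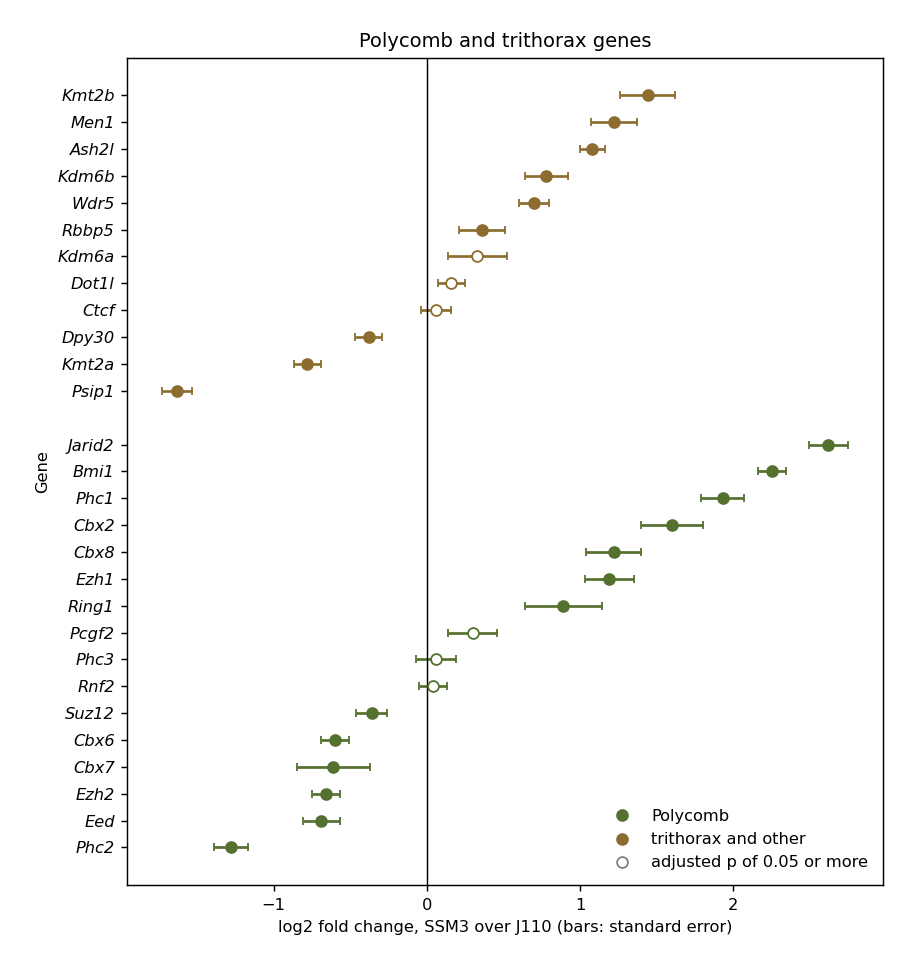
Log2 fold change, SSM3 over J110, of 16 Polycomb genes and the 12 tested trithorax genes and other regulators, with bars of 1 standard error. Filled points have an adjusted p below 0.05, and they lie on both sides of 0, from Jarid2 at 2.62 to Psip1 at -1.63.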

How the data were processed

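RNA of cultured J110 and SSM3 cells, 3 biological replicates each, was made into QuantSeq 3′ mRNA libraries. The authors demultiplexed reads with bcl2fastq 2.17.1.14, trimmed them with cutadapt 2.1, mapped them to mm10 with HISAT2 2.0.4, counted them per gene with featureCounts (Subread 2.0.0) and deposited raw counts without normalisation. The strand setting, the treatment of reads over several genes and the annotation release are not given in the sources used here. Sample labels gave the line and replicate of each library. The samples are described as biological replicates with no word on separate cultures, so p-values measure the spread between these samples, which may be technical.

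Of 52636 gene identifiers, 52489 (99.7%) matched GENCODE M21, which gave symbols, positions and exons. All genes entered the library sizes. After filterByExpr and TMM scaling, the whole table was tested with edgeR's quasi-likelihood test (edgeR 4.0.16, limma 3.58.1, R 4.3.3), with Benjamini-Hochberg adjusted p below 0.05 as the threshold. The standard error was the size of the log2 fold change divided by the square root of the F statistic. The procedure was tested on simulated data. The members, the cofactor, regulator and marker lists and the tests were chosen with earlier results of these data known. Named genes were all members above the floor with counts per library, every cofactor tested, the largest called change in each direction, and neighbours sharing an exon with such a member or reaching 10 CPM. Other regulators, Skap1, Gm27868, Hotairm1, Hotair, Hottip and Mir10a were named after their values were seen. Alternatives covered scaling, filters, DESeq2 1.42.0, limma-voom, a minimum change, the replicate block and leaving out libraries. Some items are not reported here, and counts over the gene lists leave them out.

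Same-numbered replicates of the lines were compared by the correlation of their deviations from the line means, which was 0.0118, 0.0155 and 0.0268, so the numbers were not taken to pair the samples.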

Additional observations from a re-analysis of the deposited data

How the results depend on the processing

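The 3 Hox genes called, Hoxb2, Hoxb3 and Hoxb4, were called under every alternative that tested them, and leaving out each library in turn gave 3 in each case. They passed the filter on low counts through the SSM3 libraries, where they were high, so these numbers are a description. The number rose to 5 of 22 members where any gene with a single count was tested. Of all genes tested that way, 24.1% were called higher in SSM3 cells. Over members that share no exon the number was 1. A filter of at least 10 counts in every library left no Hox gene to test, so it gave no value. A test for more than a 2-fold change left 1 cofactor (Meis1) and 7 regulators (Bmi1, Cbx2, Jarid2, Kmt2b, Phc1, Phc2 and Psip1), where it called 34.8% of all genes tested. Leaving out each library gave 4 to 6 cofactors and 20 to 22 regulators. Of the values for single genes under alternatives, 513 kept their direction and side of the threshold, 45 lost and 8 gained significance, and 6 changed sign. Those 6 were of genes that were not called, namely Rnf2 at -0.01 without J110 replicate 3, -0.01 without SSM3 replicate 2 and -0.05 without both, Phc3 at -0.02 without SSM3 replicate 1, and Ctcf at -0.02 without J110 replicate 1 and -0.03 without SSM3 replicate 3. Over the alternatives that left out libraries, these genes ranged from -0.05 to 0.10 (Rnf2), -0.02 to 0.18 (Phc3) and -0.03 to 0.21 (Ctcf). The cause was not tested. Without J110 replicate 3 the J110 sum went from 1.35 to 0.779 CPM for HoxB and from 0.275 to 0.0989 CPM for HoxA. The HoxC counts of J110 cells were all in replicate 1, and the HoxD counts in 1 library of each line, so without that library these sums were 0. Depth limits the 34 members at the floor, which rest on at most 3 counts in any library.

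With the replicate number as a block, 3 Hox genes, 4 cofactors and 21 regulators were called. Meis3 (adjusted p = 0.0524) and Cbx7 (adjusted p = 0.0571) were lost, and no other call changed. Each sample correlated best with its own number, which is a hint from the data and not part of the design.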

Other observations

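Homeobox genes outside the Hox clusters were gathered in a list written after the data had been seen. Of 77 such genes, 38 had no count in any library and 17 were tested, of which 11 were lower in SSM3 cells and 6 higher, against 39.2% and 38.6% of all genes tested. Of the 11, 7 were at the floor in SSM3 cells and passed the filter through J110 libraries alone, and of the 6, 2 were at the floor in J110 cells. Above the floor in J110 libraries alone were 13 genes, in SSM3 libraries alone 3, and in both 8. The share over all genes was not taken for this floor rule, so these numbers are a description of the list only. Prrx2, a mesenchymal homeobox gene, had 282, 267 and 274 counts in J110 libraries and 0, 1 and 0 in SSM3 libraries (log2 fold change of -9.16 with a standard error of 0.32, adjusted p = 1.70e-13). Its relative Prrx1 and the genes Hhex and Hlx had no SSM3 count and were at least 14.0-fold, 33.9-fold and 12.4-fold lower than in J110 cells, against 3 counts in an SSM3 library. Irx3, an Iroquois gene of limb and neural patterning, was at 163 ± 10.8 CPM in J110 cells and 16.9 ± 2.86 CPM in SSM3 cells (-3.26 with a standard error of 0.11). In the opposite direction, Irx2 was at 5.25 ± 0.826 and 115 ± 6.71 CPM (4.45 with a standard error of 0.13) and Otx1 at 2.38 ± 0.658 and 17.2 ± 2.42 CPM (2.83 with a standard error of 0.25). Msx2, a homeobox gene of mammary gland development, had 0, 0 and 1 counts in J110 libraries and 323, 293 and 87 in SSM3 libraries, with SSM3 replicate 3 well below the other two. The fibroblast markers summed to 1.54 to 1.98 CPM in J110 libraries and 0.398 to 1.91 CPM in SSM3 libraries. The endothelial markers summed to 158 to 181 CPM and at most 0.425 CPM, and the leukocyte markers to 29.2 to 35.0 and 14.7 to 17.0 CPM. The erythroid markers summed to at most 0.209 and 1.34 CPM. The part of other cell types in the values of these homeobox genes was not tested.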
